A study of Mus musculus with 24 samples.

Results

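A list of 10 genes for glucose uptake and insulin signalling was followed through the left gastrocnemius, a calf muscle made almost wholly of fast fibres, of mice with and without experimental muscle pain. The genes are Slc2a1, Slc2a4, Hk2, Insr, Irs1, Irs2, Gys1, Tbc1d1, Pdk4 and Txnip. They were listed by name for their role, with earlier results of these data known, and all 10 were found among the 54532 genes of the count files. Every library held counts for each of the 10 genes, and all 10 passed the filter on low counts in both sexes. The mice were wild type (WT) C57/BL6 animals, and RNA was taken at a labelled time of 24 h, 1 library per sample, with 4 samples in each of 6 groups. In each sex, controls (labelled Sed + pH 7.2) were sedentary and had a pair of 20 µl saline injections of pH 7.2 into the muscle, 5 days apart. Sedentary pain mice (Sed + pH 5.0) received pH 5.0 injections instead, of equal volume and spacing, and their muscle was made to contract by electrical stimulation for 6 min right before the second injection. Active pain mice (Ex + pH 5.0) went through that procedure after 8 weeks with running wheels. The controls had neither acid nor contraction, so these cannot be told apart from each other, whereas the active and sedentary pain groups differed by running. No group ran without pain. The age of the mice is not given in the sources used here. The labels number the samples of a group but do not say that they came from separate animals, so the p-values measure the spread between these samples, which may be partly technical.

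Muscle takes up glucose through facilitative transporters. GLUT4, encoded by Slc2a4, waits in vesicles inside the fibre and moves to the surface when insulin or contraction calls for it, whereas GLUT1, encoded by Slc2a1, sits at the surface of most cell types and serves basal uptake. Insulin acts through its receptor (Insr) and the docking proteins IRS1 and IRS2 on the kinase Akt, which switches off the brake proteins TBC1D1 and TBC1D4 that hold GLUT4 vesicles back, while AMPK reaches the same brake during contraction. Hexokinase II (Hk2) traps the glucose as glucose 6-phosphate, and glycogen synthase (Gys1) stores it. PDK4 switches off pyruvate dehydrogenase inside mitochondria, and TXNIP restrains glucose uptake.

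The libraries held 17612139 to 34039699 counts, and 18839 to 20648 genes had at least 1 count. All 20 fast myofibre markers had counts in every library, with Myh4, a fast myosin heavy chain, the most abundant. Markers of other cells differed between libraries of one group. The 14 macrophage and monocyte markers summed to 119 to 272 counts scaled to library size (CPM) in female controls and to 581, 960, 4697 and 6690 CPM in female sedentary pain replicates 1 to 4. The 10 adipocyte markers summed to 474 and 304 CPM in female control replicates 1 and 2 and to 6011 and 2914 CPM in replicates 3 and 4, against 215 to 719 CPM in female sedentary pain. In males, sedentary pain replicate 1 stood apart, with neutrophil markers at 351 CPM against 6.16 to 7.94 CPM in the other three, and so did active pain replicate 2, at 98.7 CPM against 9.46 to 12.8 CPM. The mitochondrial share of counts was 8.22, 3.85, 5.86 and 2.75% in female sedentary pain replicates 1 to 4 against 8.59 to 11.02% in female controls. It was 4.53% in male sedentary pain replicate 1 and 5.97% in male active pain replicate 2, against 8.14 to 12.6% in the other male libraries. The part of these differences in the results was not tested.

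Promoter sequences are shown for 3 of the 5 genes called in female sedentary pain, those with a promoter in the set used here. They are Slc2a1 and Hk2, which were higher, and Irs2, which was lower and the weakest of these calls. The set held RefSeq promoters (GRCm38.p6) from 250 bases before to 50 bases after the start site. It covered 8 of the 10 genes, with 2 promoters for Tbc1d1. Slc2a4 and Insr, both called as well, had no entry in it. Capitals mark the core ACGTG, the letters bound by hypoxia-inducible factors, and the E-box CACGTG, which contains it, on either strand. The sequences belong to Slc2a1 at chr4:119108495-119108794 on the plus strand, Hk2 at chr6:82774405-82774704 on the minus strand, and Irs2 at chr8:11008880-11009179 on the minus strand, each read 5′ to 3′ along the gene. The RefSeq start of Irs2 lies upstream of the GENCODE gene given further on.
Slc2a1: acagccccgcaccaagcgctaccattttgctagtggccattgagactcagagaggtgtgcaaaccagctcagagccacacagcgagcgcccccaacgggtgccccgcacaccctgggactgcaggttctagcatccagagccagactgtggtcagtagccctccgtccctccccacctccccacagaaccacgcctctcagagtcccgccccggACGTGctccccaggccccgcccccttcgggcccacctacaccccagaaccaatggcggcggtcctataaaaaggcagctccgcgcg
Hk2: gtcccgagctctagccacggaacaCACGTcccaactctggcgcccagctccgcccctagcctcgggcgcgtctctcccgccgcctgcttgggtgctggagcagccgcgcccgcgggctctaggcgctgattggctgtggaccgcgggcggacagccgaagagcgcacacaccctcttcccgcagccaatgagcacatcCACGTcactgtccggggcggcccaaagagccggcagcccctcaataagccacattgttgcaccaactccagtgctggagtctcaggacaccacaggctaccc
Irs2: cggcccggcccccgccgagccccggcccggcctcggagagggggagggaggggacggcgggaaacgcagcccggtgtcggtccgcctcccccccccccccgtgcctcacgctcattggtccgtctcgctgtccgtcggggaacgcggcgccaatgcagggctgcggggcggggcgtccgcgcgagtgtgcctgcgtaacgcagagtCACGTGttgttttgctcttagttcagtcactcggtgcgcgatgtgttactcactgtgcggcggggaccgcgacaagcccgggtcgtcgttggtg
The core ACGTG stood 36 bases before the start in Slc2a1, and 226 and 52 bases before it in Hk2. In Irs2 it lay within an E-box 44 bases before the start. The core ACGTG was in 4 of the 8 genes (Slc2a1, Hk2, Irs1 and Irs2) and in 19.6% of all 32851 promoters of the same length. The E-box CACGTG was in Irs1 and Irs2 and in 7.15% of all promoters, and the forkhead core GTAAACA was in Txnip alone of the 8 genes and in 3.65% of all promoters. The GC box GGGCGG was in 7 of the 8 genes, all but Pdk4, and in 35.7% of all promoters. These counts are by gene, whereas the percentages are by promoter. Of the 9 promoters of the 8 genes, ACGTG was in 4, CACGTG in 2, GTAAACA in 1 and GGGCGG in 7. Both genes that rose and a gene that fell held the ACGTG core. A match is a description of letters, not of binding.

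In females, Slc2a1 and Hk2 rose in sedentary pain while Slc2a4, Insr and Irs2 fell. Thus 5 of the 10 genes passed the test against control (edgeR quasi-likelihood F test, Benjamini-Hochberg adjusted p under 0.05 over all 14511 genes). Of all genes tested, 33.5% passed, 19.6% higher and 13.9% lower, so the share among the 10 was not far from the background of a comparison with many changes. The groups did not overlap for 4 of the 10 genes (Slc2a4, Hk2, Insr and Pdk4), against 26.3% of all genes. The median log2 change of the 10 genes was -0.30, beside -0.02 over all genes tested.

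**Figure D1:**
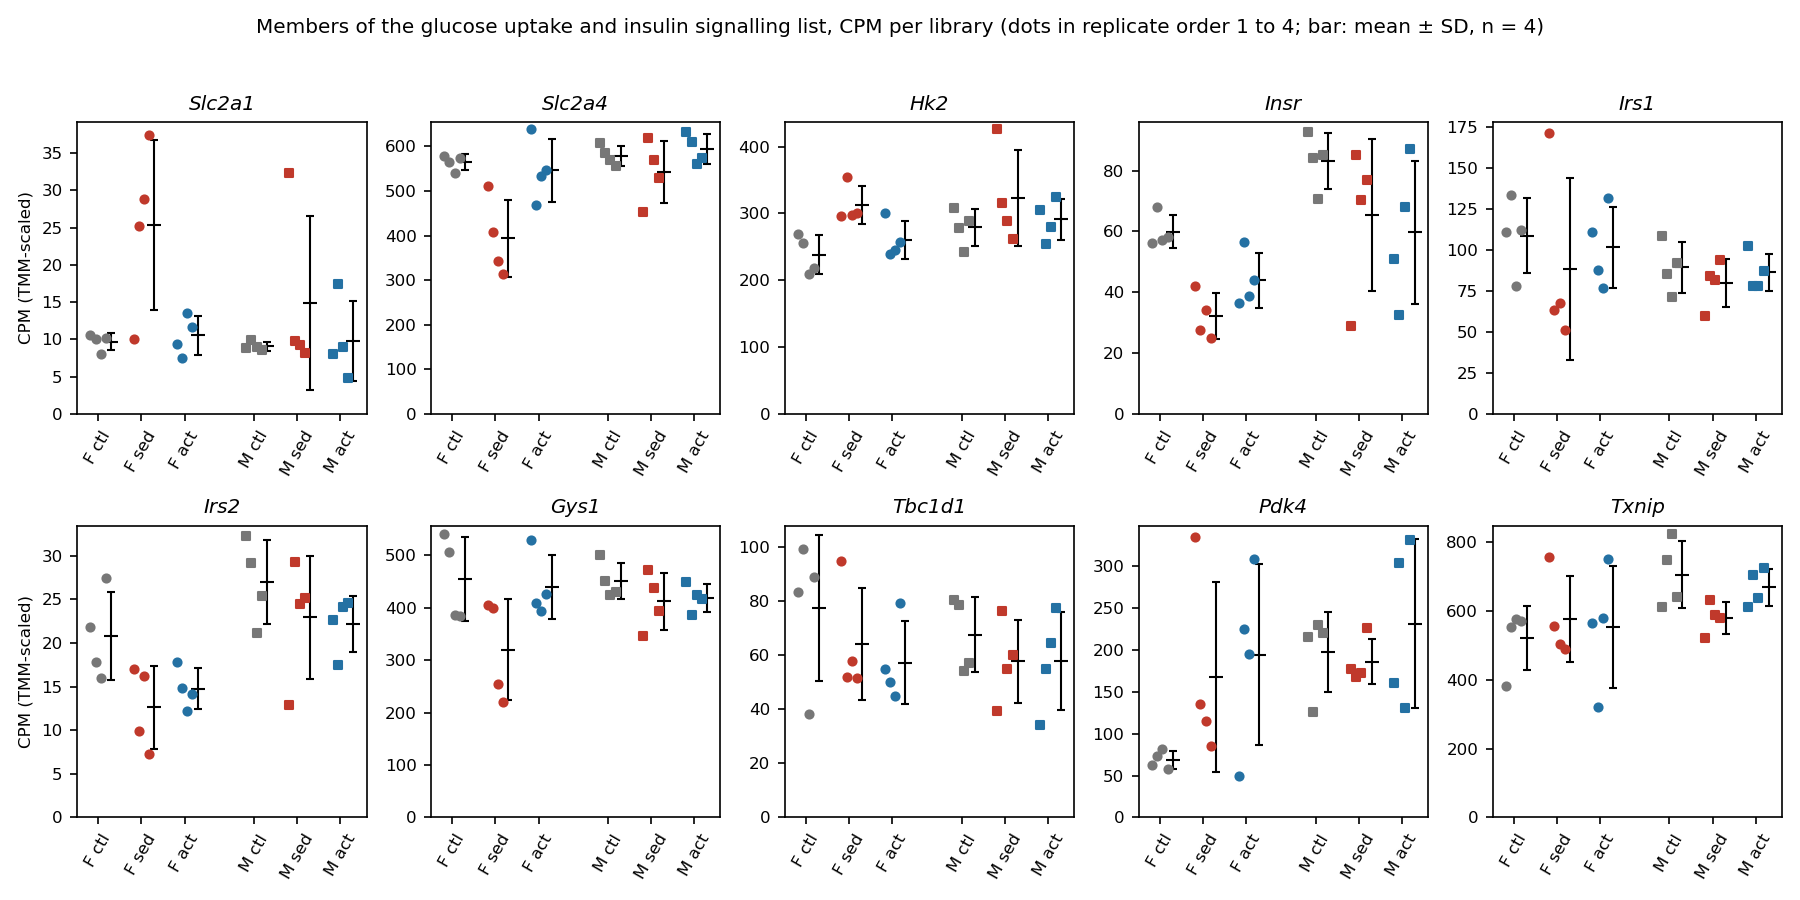
Level of each of the 10 genes in CPM, scaled by TMM, in every library. Dots are libraries in replicate order 1 to 4, circles are females (F), squares are males (M), grey is control (ctl), red sedentary pain (sed), blue active pain (act), and the bar gives mean ± SD (n = 4). Female sedentary pain libraries lie below every female control for Slc2a4 and Insr and above every one for Hk2 and Pdk4, while Slc2a1 has 1 of 4 at the control level.

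Slc2a1 (ENSMUSG00000028645, chromosome 4, 119108711 to 119137983, plus strand, GRCm38), the basal transporter, was at 10.6, 10.1, 8.05 and 10.1 CPM in the 4 female controls. In female sedentary pain it was at 10.1, 25.2, 28.8 and 37.5 CPM. Of these libraries 3 were above every control and the remaining one, replicate 1, was at the control level. The rise was 2.58-fold (log2 1.37 ± 0.32 SE, adjusted p = 0.00991), and it was called with any single library left out (adjusted p 0.000321 to 0.0309). In female active pain Slc2a1 was at 9.41, 7.52, 13.6 and 11.7 CPM, a level that overlapped the controls (log2 0.12 ± 0.32, adjusted p = 0.925) and was 2.37-fold below sedentary pain (log2 -1.25 ± 0.32, adjusted p = 0.0333). Slc2a1 was the only member of the 10 called between active and sedentary pain, where 11.9% of all genes (1730) were called, 2.51% higher and 9.41% lower, and no member had groups that did not overlap (11.8% of all genes). With 1 of the 12 female libraries left out, 0 to 4316 genes were called in that comparison, with none in 4 of the 12 fits. Sedentary pain replicate 2, above every control in Slc2a1, had macrophage markers at 960 CPM against 119 to 272 CPM in controls. The call of the rise was lost without sedentary pain replicates 3 and 4 together, which had the most macrophage marker RNA (log2 0.84, adjusted p = 0.109). Without control replicates 3 and 4, those rich in adipocyte markers, the rise was log2 1.26 (adjusted p = 0.0661). The fall in active against sedentary pain was log2 -0.73 (adjusted p = 0.336) without those sedentary pain libraries and log2 -1.23 (adjusted p = 0.0558) without those controls. It was also not called without sedentary pain replicate 3 (adjusted p = 0.0677) or 4 (0.102), or without active pain replicate 1 (0.0849), 2 (0.103) or 4 (0.0889). The part of macrophage RNA in these changes was not tested.

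Slc2a4 (ENSMUSG00000018566, chromosome 11, 69942539 to 69948188, minus strand), the insulin-responsive transporter, was at 579, 566, 539 and 575 CPM in female controls and at 510, 407, 343 and 314 CPM in female sedentary pain. Every sedentary pain library was below every control, and the controls lay within a narrow band. The fall was 1.45-fold (log2 -0.54 ± 0.16, adjusted p = 0.0269). Female active pain libraries were at 638, 468, 533 and 546 CPM, spread across the control range (log2 -0.05 ± 0.16, adjusted p = 0.939) and log2 0.49 ± 0.16 above sedentary pain, which did not pass the test (adjusted p = 0.0642). The fall was not called without control replicate 1 (adjusted p = 0.0612), 2 (0.0603) or 4 (0.0580), or without sedentary pain replicate 3 (0.0623) or 4 (0.0782). Without both of the latter it was log2 -0.31 (adjusted p = 0.155), and without control replicates 3 and 4 log2 -0.57 (adjusted p = 0.0849). Active against sedentary pain was called without sedentary pain replicate 1 (log2 0.61, adjusted p = 0.0104). In a bulk sample, fewer cells of a type and less RNA per cell cannot be told apart.

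Per length of exon, GLUT4 transcripts far outnumbered GLUT1 transcripts in every group. In female controls Slc2a4 had 162 ± 5.10 CPM per kb (SD, n = 4) and Slc2a1 2.77 ± 0.32 CPM per kb. The log2 ratio of Slc2a1 to Slc2a4 within a library, taken on CPM + 0.5, was -5.70, -5.75, -5.98 and -5.76 in female controls and -5.59, -3.99, -3.55 and -3.05 in female sedentary pain. All 4 sedentary pain ratios were above every control ratio, replicate 1 by the smallest margin. The mean difference was 1.75, with the smallest p that 4 against 4 samples allow (exact two-sided permutation test over 70 arrangements, p = 0.0286), and it did not pass after adjustment over the 30 ratio tests (adjusted p = 0.286). None of the 30 ratio tests passed, and with 30 tests no ratio could have passed unless most were at that smallest p. In female active pain the ratio was -6.01, -5.87, -5.24 and -5.49.

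Hk2 (ENSMUSG00000000628, chromosome 6, 82725025 to 82774454, minus strand), the inducible hexokinase of muscle, was at 270, 256, 209 and 219 CPM in female controls and at 296, 355, 298 and 300 CPM in female sedentary pain. The groups did not overlap, though the highest control and the lowest sedentary pain library were close. The rise was 1.29-fold (log2 0.37 ± 0.13, adjusted p = 0.0417). Female active pain libraries, at 301, 240, 245 and 257 CPM, overlapped both other groups (log2 -0.24 ± 0.13 against sedentary pain, adjusted p = 0.200). The call of Hk2 was lost without control replicate 2 (adjusted p = 0.0703), 3 (0.0974) or 4 (0.112), without sedentary pain replicate 2 (0.0970) or 4 (0.0613), and without active pain replicate 2 (0.0504), 3 (0.0552) or 4 (0.0604), which are fitted together with the 2 groups compared. Without sedentary pain replicates 3 and 4 the rise was log2 0.43 (adjusted p = 0.0839), and without control replicates 3 and 4 log2 0.21 (adjusted p = 0.316). The highest library, sedentary pain replicate 2, had neutrophil markers at 301 CPM, against 26.5 to 66.8 CPM in the rest of its group and 2.99 to 8.56 CPM in controls, and the part of these cells was not tested.

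Hexokinase I (Hk1), the form found in most cell types, also rose in female sedentary pain, from 10.01, 10.6, 9.80 and 12.1 CPM to 16.1, 25.3, 38.0 and 42.3 CPM (log2 1.496 ± 0.25, adjusted p = 0.00303). The rise of Hk1 was called with any single library left out and without sedentary pain replicates 3 and 4 (log2 0.94, adjusted p = 0.0190). The log2 ratio of Hk2 to Hk1 was 4.69, 4.53, 4.35 and 4.12 in female controls and 4.16, 3.78, 2.95 and 2.81 in sedentary pain. It was lower by 0.99 on average (exact permutation p = 0.0571, adjusted 0.343), and 1.03 higher in active than in sedentary pain (exact permutation p = 0.0286, adjusted 0.286).

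The insulin receptor gene Insr (ENSMUSG00000005534, chromosome 8, 3122061 to 3279617, minus strand) had the smallest adjusted p of the 10 genes. It was at 56.3, 67.9, 57.3 and 58.3 CPM in female controls and at 42.0, 27.7, 34.0 and 24.9 CPM in female sedentary pain, every library below every control. The fall was 1.89-fold (log2 -0.91 ± 0.19, adjusted p = 0.00568), and it was called with any single library left out (adjusted p 0.00102 to 0.0182). Without sedentary pain replicates 3 and 4 it was log2 -0.79 (adjusted p = 0.0574). Female active pain libraries were at 36.3, 56.6, 38.8 and 43.9 CPM. Replicates 1 and 3 were inside the sedentary pain range, replicate 2 was inside the control range, and replicate 4 lay between the groups. Their difference passed neither against control (log2 -0.45 ± 0.19, adjusted p = 0.658) nor against sedentary pain (log2 0.47 ± 0.19, adjusted p = 0.108), although without sedentary pain replicate 1 the latter was called (log2 0.59, adjusted p = 0.0252).

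Irs2 (ENSMUSG00000038894, chromosome 8, 10984681 to 11008458, minus strand), a docking protein of the receptor whose gene is quickly regulated in many tissues, was at 21.9, 17.9, 16.0 and 27.5 CPM in female controls. In female sedentary pain it was at 17.0, 9.93, 16.3 and 7.31 CPM, and replicates 1 and 3 overlapped the controls. The fall was 1.67-fold (log2 -0.74 ± 0.27, adjusted p = 0.0498), at the edge of the threshold. It was not called without control replicate 1 (adjusted p = 0.0952), 2 (0.0702) or 4 (0.135), without sedentary pain replicate 2 (0.109) or 4 (0.130), or without any one of the active pain libraries (0.0544 to 0.0631). Without sedentary pain replicates 3 and 4 it was log2 -0.63 (adjusted p = 0.133), and without control replicates 3 and 4 log2 -0.68 (adjusted p = 0.133). Female active pain libraries were at 12.2 to 17.9 CPM (log2 -0.50 ± 0.26 against control, adjusted p = 0.802).

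Irs1 (ENSMUSG00000055980, chromosome 1, 82233101 to 82291416, minus strand), the main docking protein of muscle, was not called. Female controls were at 111, 134, 78.3 and 112 CPM. Female sedentary pain libraries were at 171, 63.5, 67.9 and 51.3 CPM, with replicate 1 above every control and the other three below every one (log2 -0.31 ± 0.35, adjusted p = 0.492). Without that replicate, Irs1 was lower by log2 -0.84 (adjusted p = 0.0107) in sedentary pain and log2 0.73 higher (adjusted p = 0.0292) in active than in sedentary pain. The log2 ratio of Irs2 to Irs1 differed in no comparison (smallest exact permutation p = 0.171).

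Tbc1d1 (ENSMUSG00000029174, chromosome 5, 64156305 to 64351486, plus strand), the brake on GLUT4 vesicles that AMPK and Akt release, ranged from 38.2 to 99.3 CPM in female controls, 51.6 to 94.8 CPM in sedentary pain and 44.7 to 79.1 CPM in active pain. These ranges overlapped throughout (log2 -0.29 ± 0.30 in sedentary pain against control, adjusted p = 0.458). Its relative Tbc1d4, the insulin-sensitive brake, fell from 39.2, 52.9, 49.4 and 56.2 CPM to 27.0, 15.5, 33.1 and 22.0 CPM (log2 -1.03 ± 0.23, adjusted p = 0.00828). The ratio of Tbc1d1 to Tbc1d4 was higher by log2 0.81 on average and did not pass (exact permutation p = 0.0857, adjusted 0.367).

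Gys1 (ENSMUSG00000003865, chromosome 7, 45434844 to 45456619, plus strand), the muscle glycogen synthase, was at 541, 506, 387 and 385 CPM in female controls and at 405, 399, 254 and 220 CPM in female sedentary pain. Replicates 1 and 2 overlapped the lower controls, and the difference did not pass (log2 -0.53 ± 0.22, adjusted p = 0.0749). It passed in 7 of 29 alternatives, among them without sedentary pain replicate 1 (log2 -0.65, adjusted p = 0.0353), with replicates 3 and 4 only (log2 -0.72, adjusted p = 0.0377), with offsets for GC content and length (log2 -0.72, adjusted p = 0.0465) and with all 24 samples in 1 fit (log2 -0.51, adjusted p = 0.0303). Without sedentary pain replicates 3 and 4 it was log2 -0.19 (adjusted p = 0.457). Active pain libraries were at 394 to 529 CPM (log2 0.48 ± 0.21 against sedentary pain, adjusted p = 0.149). Exons of Ruvbl2 lie opposite 310 bases of Gys1 exons, and Ruvbl2 itself was at 19.5 to 29.2 CPM. The antisense genes opposite Irs1, Irs2, Slc2a1 and Txnip had at most 21 counts in any library.

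Pdk4 (ENSMUSG00000019577, chromosome 6, 5483351 to 5496309, minus strand), the kinase that closes pyruvate dehydrogenase in fasting and after exercise, varied widely between libraries of one group. It was at 62.4, 73.0, 81.4 and 58.4 CPM in female controls, at 335, 136, 115 and 84.9 CPM in sedentary pain and at 49.0, 226, 195 and 309 CPM in active pain. All 4 sedentary pain libraries were above every control, but the difference did not pass the test (log2 1.27 ± 0.51, adjusted p = 0.0707). It passed with DESeq2 (log2 1.28, adjusted p = 0.0322) and without active pain replicate 1 (log2 1.27, adjusted p = 0.0277), whereas without sedentary pain replicate 1, the library at 335 CPM, it was log2 0.70 (adjusted p = 0.210). In active pain 3 of 4 libraries were above every control and replicate 1 was below every one (log2 1.50 ± 0.51, adjusted p = 0.598). The ratio of Pdk4 to Pdk2, the constitutive muscle form, was -3.42, -3.03, -2.76 and -3.26 on the log2 scale in female controls and -0.69, -2.17, -1.63 and -1.97 in sedentary pain. It was higher in 4 of 4 libraries, by 1.50 on average (exact permutation p = 0.0286, adjusted 0.286).

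Txnip (ENSMUSG00000038393, chromosome 3, 96557957 to 96561883, plus strand), an arrestin-like protein that removes glucose transporters from the surface, had the highest mean level per length of the 10 genes in each of the 6 groups, 167 ± 29.6 CPM per kb in female controls. Female controls were at 383, 553, 577 and 571 CPM, sedentary pain libraries at 758, 557, 503 and 488 CPM and active pain libraries at 566, 320, 578 and 752 CPM. The ranges overlapped and no female comparison passed (log2 0.13 ± 0.25 in sedentary pain against control, adjusted p = 0.697).

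**Figure D2:**
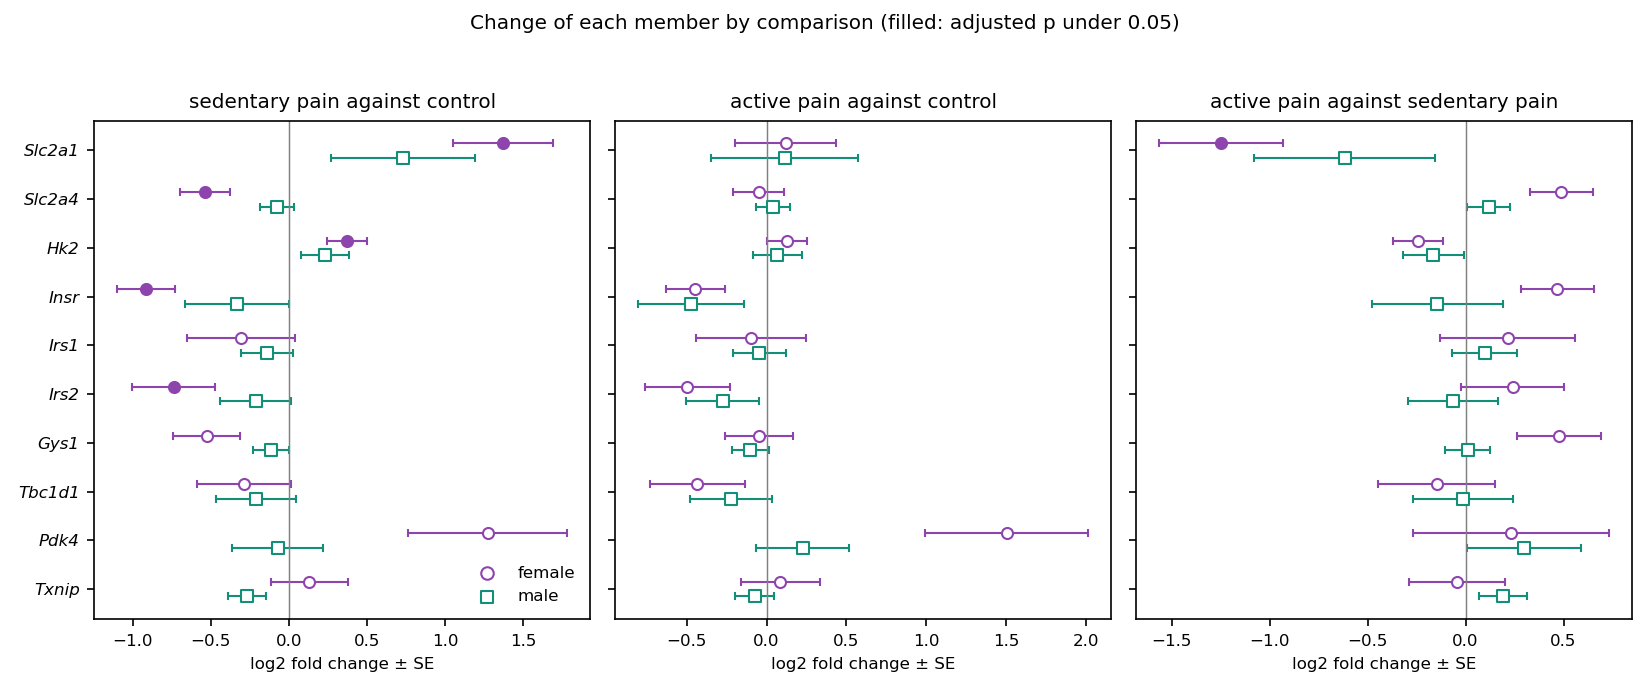
Log2 fold change ± SE of each gene in the 3 comparisons within females (purple circles) and within males (green squares). Filled symbols passed an adjusted p of 0.05. In sedentary pain against control, 5 female symbols are filled (Slc2a1, Slc2a4, Hk2, Insr and Irs2), in active against sedentary pain only the female Slc2a1 is, and no male symbol is.

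Between female active pain and control none of the 10 genes passed, and neither did any other gene (0% of 14511 genes, 1020 of them at an unadjusted p under 0.05; DESeq2 called 133 genes and none of the 10). No member had groups that did not overlap, against 5.44% of all genes. The comparisons with female sedentary pain and with control share libraries, so a gene low or high in sedentary pain alone shows in both. Slc2a4 changed by log2 -0.54, -0.05 and 0.49 in sedentary pain against control, active pain against control and active against sedentary pain, in that order. Insr changed by log2 -0.91, -0.45 and 0.47 in the same order, so it was not low in sedentary pain alone, though active pain against control was not called.

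In males none of the 10 genes passed in any of the 3 comparisons, and no gene of 14404 did (0% in each; 1273, 1045 and 121 genes at an unadjusted p under 0.05 in sedentary pain against control, active pain against control and active against sedentary pain). DESeq2 called 280, 123 and 0 genes in that order, 271 and 114 of them higher in the first and second, and none of the 10. All 10 had overlapping groups in each comparison, against groups that did not overlap for 8.07%, 10.4% and 0.646% of all genes in the same order. Single libraries stood apart. Slc2a1 was at 8.56 to 9.97 CPM in male controls and at 32.3, 9.77, 9.25 and 8.23 CPM in male sedentary pain (log2 0.73 ± 0.46, adjusted p = 0.630). Insr was at 92.6, 84.3, 70.8 and 85.1 CPM in male controls, at 28.9, 85.1, 70.5 and 76.8 CPM in sedentary pain and at 51.1, 32.4, 68.1 and 87.1 CPM in active pain (log2 -0.33 ± 0.33 and -0.47 ± 0.33 against control, adjusted p = 0.659 and 0.634). In sedentary pain replicate 1, Slc2a1 was the highest and Slc2a4 (454 CPM against 529 to 619 CPM), Insr and Irs2 (12.9 CPM against 24.5 to 29.4 CPM) the lowest of their group. Hk2, at 426 CPM against 263 to 316 CPM, was the highest. Without that library the male change in sedentary pain was log2 0.02 for Slc2a1, log2 -0.08 for Insr, log2 -0.02 for Irs2 and log2 0.07 for Hk2. Without active pain replicate 2, which had the lowest Insr of its group, the male change in active pain was log2 -0.26 for Insr and log2 -0.31 for Slc2a1 (adjusted p = 0.979 each), which was at 17.4 CPM in that library against 4.83 to 8.997 CPM in the other three and at log2 0.11 with it. Male sedentary pain replicate 1 also had the highest neutrophil (351 CPM) and macrophage marker sum (1015 CPM against 180 to 599 CPM) of its group, and the part of these cells in its levels was not tested.

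The remaining male levels overlapped between the groups. Male Slc2a4 was at 556 to 607 CPM in controls, 454 to 619 CPM in sedentary pain and 560 to 633 CPM in active pain. Male Gys1 was at 424 to 500, 347 to 471 and 385 to 450 CPM, Irs1 at 71.5 to 109, 59.5 to 94.2 and 78.0 to 102 CPM, and Tbc1d1 at 54.2 to 80.3, 39.3 to 76.1 and 34.3 to 77.2 CPM in the same order. Male Pdk4 was at 126 to 230 CPM in controls, 168 to 227 CPM in sedentary pain and 131 to 331 CPM in active pain. Txnip in male sedentary pain, at 521 to 632 CPM against 613 to 823 CPM in controls, was log2 -0.27 ± 0.12 (adjusted p = 0.564).

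The changes were not shown to differ between the sexes. Tested as male change minus female change in a fit of all 24 samples, none of the 10 genes passed in any of the 3 comparisons, and none of 15103 genes did (0% in each; 1446, 307 and 2224 genes at an unadjusted p under 0.05; DESeq2 called 21, 3 and 108 genes and none of the 10). For active against sedentary pain that count of 0 depended on which libraries were fitted: 2174 genes passed without male sedentary pain replicate 1, 622 without female sedentary pain replicate 1 and 1222 with replicates 3 and 4 only. For sedentary pain against control the difference was log2 -0.68 ± 0.59 for Slc2a1, log2 0.42 ± 0.19 for Slc2a4 (adjusted p = 0.483), log2 0.55 ± 0.39 for Insr and log2 -1.37 ± 0.61 for Pdk4 (adjusted p = 0.486). With replicates 3 and 4 only, 1349 genes passed, among them Slc2a1 (log2 -1.88, adjusted p = 0.0170) and Slc2a4 (log2 0.72, adjusted p = 0.0318). Male controls, which had neither acid nor contraction, were not called against female controls for any of the 10 genes (2.83% of all genes were called). Pdk4 came closest, with 198 ± 48.1 CPM in males and 68.8 ± 10.4 CPM in females (SD, n = 4 each; log2 1.52 ± 0.44, adjusted p = 0.0684), and it passed with DESeq2 (log2 1.52, adjusted p = 0.0159), without female sedentary pain replicate 1 (adjusted p = 0.0323) and without female active pain replicate 1 (0.0226). Pdk4, Insr and Txnip had control groups that did not overlap between the sexes, all higher in males, against 22.3% of all genes.

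The falls in female sedentary pain depended on what the libraries were scaled to. With RLE, another scaling over all genes, the same 5 genes were called, 2 higher and 3 lower, and 59.1% of all calls were higher. Scaled to the 20 fast myofibre genes in place of TMM, the median change of all genes shifted from log2 -0.02 to 0.53. On that scale Slc2a1 (log2 2.07, adjusted p = 0.00589), Hk2 (log2 0.94, adjusted p = 0.00417) and Pdk4 (log2 1.66, adjusted p = 0.0220) were higher, and no member was lower. Slc2a4 was then at log2 -0.03 (adjusted p = 0.878), Gys1 at log2 -0.04, Irs2 at log2 -0.22 (adjusted p = 0.577) and Insr at log2 -0.39 (adjusted p = 0.235). These 4 genes lay below the shift of 0.53 in all genes, while Slc2a4 and Gys1 were within log2 0.04 of their control level relative to fast myofibre transcripts. The split of calls over all genes went from 58.5% higher with TMM to 97.0% higher with that scaling and to 43.9% higher with offsets for GC content and length (1 of the 10 genes higher, Slc2a1, and 4 lower). The fast myofibre list itself had 4 of 20 genes lower and none higher with TMM (median log2 -0.40), not far from the 13.9% of all genes lower, and its summed level was 255200 to 367700 CPM in female controls and 280300, 337700, 190400 and 174000 CPM in sedentary pain replicates 1 to 4.

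**Figure D3:**
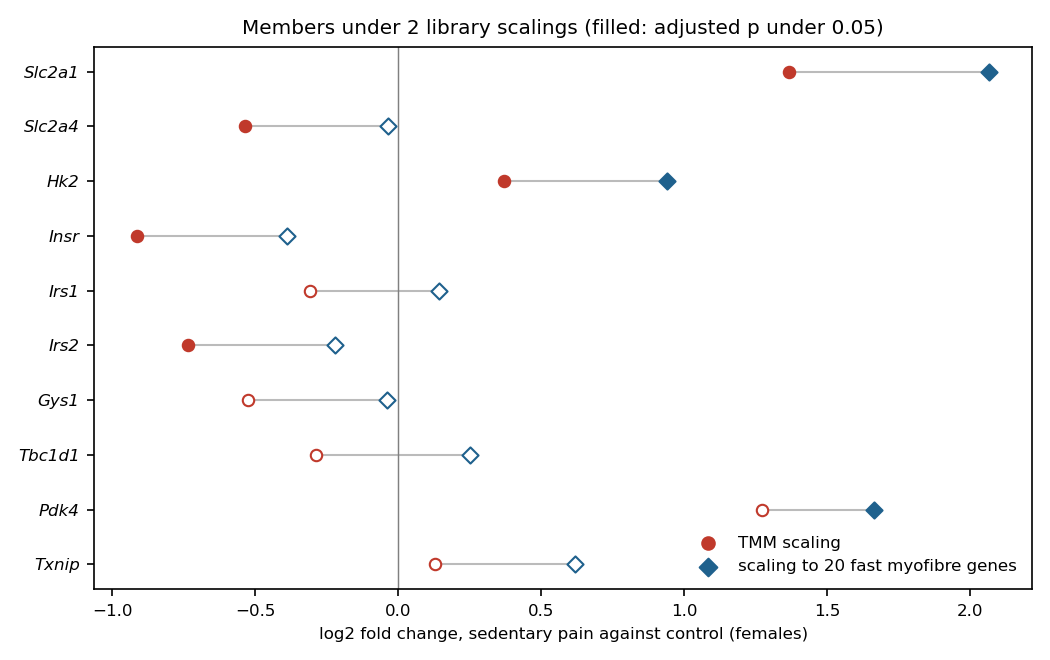
Log2 fold change of each gene in female sedentary pain against control, with libraries scaled by TMM (red circles) or to 20 fast myofibre genes (blue diamonds). Filled symbols passed an adjusted p of 0.05. Every gene moves to the right with myofibre scaling, Slc2a4 from -0.54 to -0.03 and Slc2a1 from 1.37 to 2.07, and the filled symbols below 0 are all circles.

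**Figure D4:**
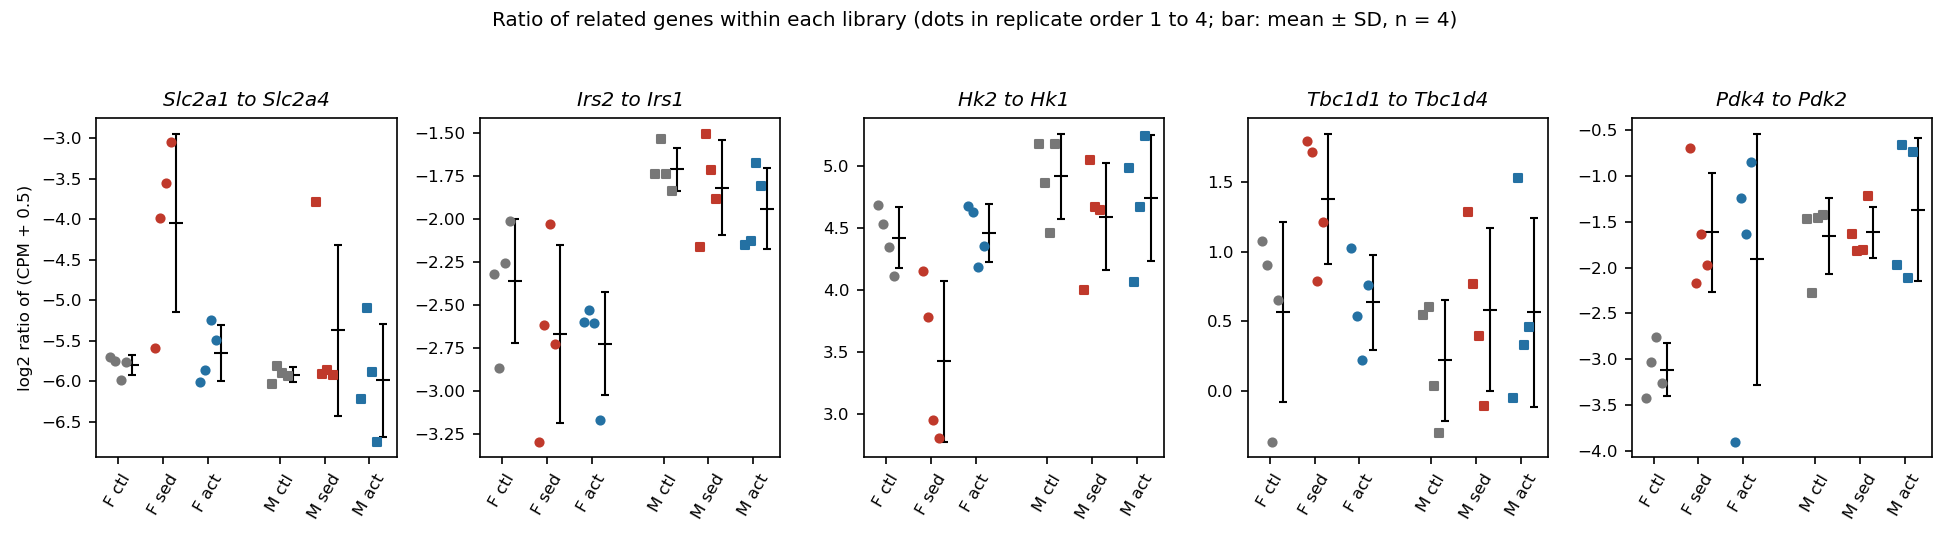
Log2 ratio of (CPM + 0.5) of 5 pairs of related genes within each library, by group, with symbols as in the plot of CPM by library. In the Slc2a1 to Slc2a4 and Pdk4 to Pdk2 panels the 4 female sedentary pain libraries lie above all 4 female controls, and in the Hk2 to Hk1 panel they lie below all 4 female active pain libraries.

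The rest of the pathway was read from 8 lists chosen with earlier results of these data known. The counts stand beside 33.5% of all genes called in sedentary pain against control (19.6% higher, 13.9% lower) and 11.9% in active against sedentary pain (2.51% higher, 9.41% lower). In female sedentary pain the other transporters and hexokinases included the largest rises. Of 7 tested genes of 9, 3 rose and 1 fell. Slc2a6, a transporter of intracellular membranes in immune cells, went from 0.17 to 0.28 CPM in controls to 1.40, 5.61, 26.6 and 41.6 CPM (log2 6.33 ± 1.10, adjusted p = 0.00320). Hk3, the hexokinase of white blood cells, went from 0.29 to 1.53 CPM to 4.88, 18.2, 69.6 and 118 CPM (log2 5.96 ± 0.997, adjusted p = 0.00303). The macrophage marker sum in these 4 libraries was 581, 960, 4697 and 6690 CPM, and its part in both rises was not tested. Slc2a12, an alternative insulin-sensitive transporter, fell (log2 -1.16 ± 0.31, adjusted p = 0.0176). Against sedentary pain, active pain had 3 of the 7 lower and none higher, Slc2a6 by log2 -3.86 ± 0.92 and Hk3 by log2 -3.79 ± 0.88 (adjusted p = 0.0328 each).

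Of the 25 core genes of insulin signalling, 2 rose and 11 fell in female sedentary pain (median log2 -0.39, beside -0.02 for all genes). The kinase gene Akt1 rose (log2 0.50 ± 0.14, adjusted p = 0.0183), as did Eif4ebp1, a brake on translation (log2 0.84 ± 0.29, adjusted p = 0.0433). Pik3r1, the regulatory subunit of phosphoinositide 3-kinase (log2 -1.05 ± 0.32, adjusted p = 0.0288), and Tsc1, a brake on mTOR (log2 -0.89 ± 0.28, adjusted p = 0.0319), fell most among genes above the level set for naming. On the myofibre scale the rises were called and both falls were not (log2 -0.49 and -0.34). Between active and sedentary pain 1 core gene rose, the transcription factor gene Foxo4 (log2 0.66 ± 0.19, adjusted p = 0.0423), and none fell.

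Among 13 brakes on insulin signalling 4 rose and 1 fell in female sedentary pain, close to the 33.5% of all genes called. Socs3, a cytokine-induced inhibitor of the receptor and its docking proteins, went from 1.81 to 2.54 CPM in controls to 8.28, 43.6, 41.3 and 49.3 CPM (log2 3.95 ± 0.61, adjusted p = 0.00261). Socs1, of the same family, was at 0.79 CPM in replicate 1, inside the control range of 0.58 to 1.25 CPM, and at 5.26, 12.5 and 41.8 CPM in the others (log2 4.10 ± 0.94, adjusted p = 0.00913). Grb14, an adaptor that binds and inhibits the insulin receptor, fell from 13.6, 16.7, 12.2 and 7.03 CPM to 4.27, 3.50, 3.70 and 3.75 CPM, every library below every control (log2 -1.71 ± 0.23, adjusted p = 0.00261). Grb14 was the only named fall called with myofibre scaling too (log2 -1.13, adjusted p = 0.0119). In active against sedentary pain 1 brake rose, Grb14 (log2 1.34 ± 0.23, adjusted p = 0.0328), and 4 fell, among them Socs1 (log2 -4.00 ± 0.93) and Socs3 (log2 -2.45 ± 0.56, adjusted p = 0.0328 each).

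Of 15 genes of GLUT4 vesicle traffic, 5 rose and 2 fell in female sedentary pain, beside 19.6% and 13.9% of all genes. The small GTPase genes Rab13 (log2 1.26 ± 0.37, adjusted p = 0.0254) and Rab8a (log2 1.236 ± 0.27, adjusted p = 0.00695) rose. Tbc1d4 and Sort1, the sorting receptor that forms GLUT4 vesicles (log2 -0.84 ± 0.20, adjusted p = 0.0111), fell, and neither fall was called with myofibre scaling (log2 -0.45 and -0.31). From sedentary to active pain none was higher and 2 fell, Rab8a (log2 -1.004 ± 0.26, adjusted p = 0.0355) and the motor Myo1c (log2 -0.41 ± 0.11, adjusted p = 0.0366).

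Of 9 AMPK genes, 3 rose and 2 fell in female sedentary pain, where 19.6% and 13.9% of all genes did. The upstream kinase gene Camkk2 rose from 3.55 to 5.69 CPM to 6.47, 14.0, 17.3 and 21.5 CPM (log2 1.63 ± 0.32, adjusted p = 0.00509) and Prkag2 rose (log2 0.56 ± 0.16, adjusted p = 0.0220). The muscle subunit genes Prkab2 (log2 -0.998 ± 0.32, adjusted p = 0.0329) and Prkag3 (log2 -0.76 ± 0.24, adjusted p = 0.0308) fell, and neither was called with myofibre scaling (log2 -0.50 and -0.15). Camkk2 fell in active against sedentary pain (log2 -1.58 ± 0.32, adjusted p = 0.0328) and no other AMPK gene was called. None of the 8 glycogen synthesis genes beside Gys1 passed in either comparison (median log2 -0.40 and 0.31).

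In the pyruvate dehydrogenase switch 1 of 13 genes rose and 6 fell in female sedentary pain (median log2 -0.50). Pdk3 rose from 0.55 to 1.17 CPM to 1.78, 2.39, 5.32 and 8.52 CPM (log2 2.45 ± 0.48, adjusted p = 0.00495). Pdha1, a catalytic subunit of the complex, fell from 577, 670, 573 and 521 CPM to 437, 236, 290 and 168 CPM (log2 -1.07 ± 0.26, adjusted p = 0.0117), and so did Mpc1, a subunit of the mitochondrial pyruvate carrier (log2 -0.98 ± 0.27, adjusted p = 0.0187). With myofibre scaling Pdha1 was at log2 -0.58 (adjusted p = 0.0732) and Mpc1 at log2 -0.50, not called. In active against sedentary pain Pdha1 rose (log2 0.86 ± 0.26, adjusted p = 0.0499) and Pdk3 fell (log2 -1.81 ± 0.47, adjusted p = 0.0342), with no other call in the list.

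Around Txnip, 2 of 9 partner genes rose and 2 fell in female sedentary pain, not far from the 19.6% and 13.9% of all genes, while Txnip itself was not called. Txn1, the thioredoxin that TXNIP binds, rose from 47.2, 43.0, 75.2 and 59.6 CPM to 94.7, 222, 168 and 357 CPM (log2 1.88 ± 0.35, adjusted p = 0.00410). Arrdc4, its closest relative and a target of the same glucose-sensing factors, rose (log2 1.17 ± 0.30, adjusted p = 0.0156). Those factors, Mlxipl (log2 -0.87 ± 0.23, adjusted p = 0.0183) and Mlxip (log2 -0.76 ± 0.23, adjusted p = 0.0272), fell, and with myofibre scaling neither was called (log2 -0.42 and -0.20). In active against sedentary pain Txn1 (log2 -1.39 ± 0.35, adjusted p = 0.0330) and Arrdc4 (log2 -1.03 ± 0.30, adjusted p = 0.0478) fell and no partner rose. In female active pain against control, and in the 3 male comparisons, none of these pathway genes was called.

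Single libraries decided several of the pathway calls. In sedentary pain against control, leaving out 1 of the 12 female libraries lost the call of Eif4ebp1 in 7 fits, of Tsc1, Prkab2 and Mlxip in 5 each, of Rab13 and Prkag3 in 4, of Pik3r1 and Prkag2 in 3, of Slc2a12 in 2 and of Mlxipl in 1. Sedentary pain replicate 4 was among the libraries for each of these 10 genes, and adjusted p reached at most 0.116. The other named calls, among them Slc2a6, Hk3, Socs1, Socs3, Grb14, Tbc1d4, Camkk2, Pdk3, Pdha1 and Txn1, were made in all 12 fits. More calls were lost when 2 libraries were left out together. Of the 26 named pathway calls, Hk1 included, 10 were made without sedentary pain replicates 3 and 4 (Socs3, Grb14, Slc2a6, Hk3, Hk1, Tbc1d4, Sort1, Prkag2, Pdk3 and Txn1). The 16 others were not, at adjusted p up to 0.332: Socs1 was then at log2 1.77 (adjusted p = 0.110), Rab8a at log2 0.67 (0.0540), Camkk2 at log2 1.10 (0.0573), Pdha1 at log2 -0.81 (0.0795), Mpc1 at log2 -0.76 (0.0706), Arrdc4 at log2 0.63 (0.163) and Akt1 at log2 0.34 (0.151). Without control replicates 3 and 4, 15 of the 26 were made, and those lost included Socs1 (log2 4.16, adjusted p = 0.0586), Tbc1d4 (log2 -0.95, adjusted p = 0.0522) and Sort1 (log2 -0.60, adjusted p = 0.0895). Each of the 26 kept its direction in both. In active against sedentary pain every named pathway call was lost without sedentary pain replicate 3 or 4 or active pain replicate 1, 2 or 4 (adjusted p up to 0.147), and without either pair (up to 0.439).

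**Figure D5:**
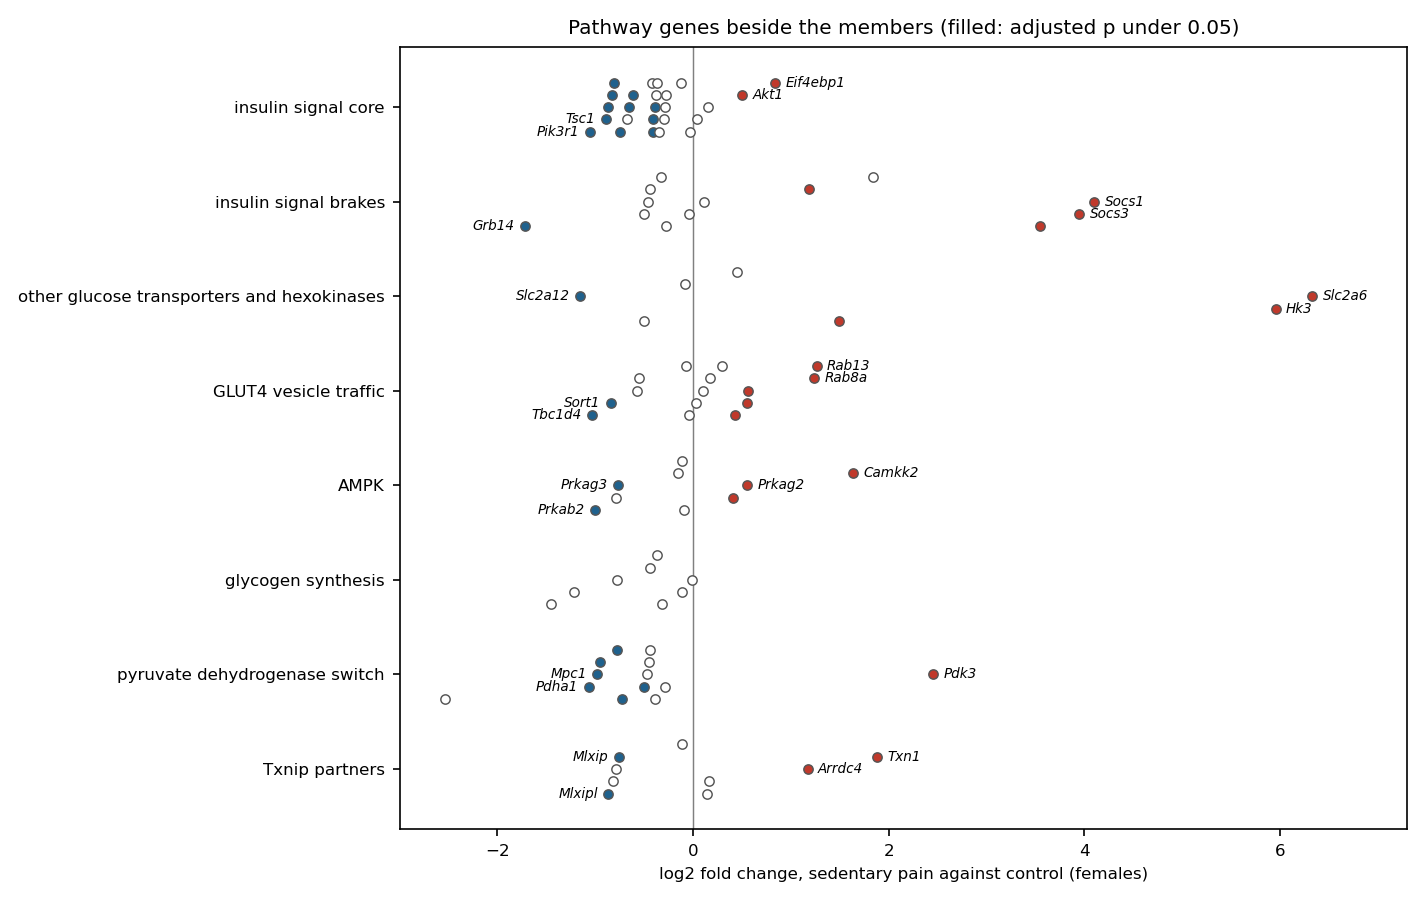
Log2 fold change in female sedentary pain against control for the tested genes of 8 pathway lists, 1 dot per gene and 1 row per list (the vertical spread within a row has no meaning). Filled dots passed an adjusted p of 0.05, red higher and blue lower, and the genes named in the text carry labels. Slc2a6, Hk3, Socs1 and Socs3 lie farthest to the right, and 11 of the 25 core insulin signalling genes are filled in blue.

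Markers of other cells and of slow fibres differed along with these results. In female sedentary pain 13 of 14 macrophage markers were higher, led in abundance by Lyz2 (36.1 to 97.2 CPM in controls, 213, 249, 2270 and 2783 CPM in sedentary pain), as were all 7 tested of 8 neutrophil markers and all 5 tested of 10 lymphocyte markers, while 9 of 10 adipocyte markers were lower, beside 19.6% of all genes higher and 13.9% lower. All 4 tested of 5 cell cycle genes were higher (median log2 4.15). In female controls the lymphocyte markers summed to only 0.59 to 2.84 CPM, and the cell cycle genes to 0.997 to 1.95 CPM. Neutrophil markers summed to 2.99 to 8.56 CPM there. Genes this low can pass the low-count filter through the group where they are high. The counts of tested genes higher in these 3 lists were thus partly set by the filter. The lists of 8 endothelial markers (2 lower) and 8 fibroblast markers (2 higher) were near the shares of all genes. Fibroblast sums were 870, 509, 1581 and 1205 CPM in sedentary pain against 735 to 908 CPM in controls. In female active pain the macrophage sum was 316 to 638 CPM, and 11 of 14 markers were lower than in sedentary pain. The 10 slow myofibre markers summed to 476, 1220, 1640 and 448 CPM in female controls, 475, 502, 394 and 416 CPM in sedentary pain and 163, 957, 4039 and 1857 CPM in active pain. None of the 10 was called in sedentary pain against control (median log2 -1.42) and 1 was higher in active than in sedentary pain (median log2 2.38, 9 at an unadjusted p under 0.05). Replicate 1 of female sedentary pain, with the lowest macrophage sum of its group, had Slc2a1 at the control level, and it also had the highest Slc2a4, Insr, Irs1, Irs2, Gys1, Tbc1d1, Pdk4 and Txnip of its group. The part of these cells and fibres in the levels of the 10 genes was not tested.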

How the data were processed

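RNA-seq libraries were made from total RNA with Illumina TruSeq stranded chemistry, per the labels. The deposited files hold raw read counts per Ensembl gene and sample, and the submitters' processing notes name HISAT2 2.1.0, Salmon 0.9.1, featureCounts, DESeq2 1.24.0 and the builds mm10 and GRCm38.p6 without roles. The use of strand in counting is not given in the sources used here. Positions came from GENCODE for GRCm38. Groups follow the labels. Genes were filtered with filterByExpr (minimum count 10), scaled by TMM and tested with edgeR 4.0.16 quasi-likelihood F tests (robust, two-sided) in R 4.3.3, each sex on its 12 samples as the study's design treats the sexes separately, and the sex differences and controls on all 24. P-values were adjusted by Benjamini-Hochberg over all genes tested, at a threshold of 0.05. CPM values use TMM factors of all 24 libraries. Ratios used CPM + 0.5 and exact permutation tests. The test was also run on simulated counts with a fixed spread for all genes. These did not imitate the differences between libraries of a group, so that run does not show how the test behaves on these data.

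Named genes were the 10 members, the up to 2 largest rises and falls per pathway list among called genes with mean log2 CPM of at least 1, and the second gene of each ratio. The members and lists were chosen with earlier results of these data known. No pair of libraries agreed within counting noise. Alternatives covered scaling, filter, tool, fitted samples, replicate number, GC content and length, a surrogate variable (sva 3.50.0) and left-out libraries.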

Additional observations from a re-analysis of the deposited data

Results flagged for a closer look

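In 7 of the 60 groups of 4 values (10 genes in 6 groups), 1 library lay far from the other three, its gap to the nearest, as a share of the group's range, being above Dixon's 95% critical value. Chance gives about 1 in 20, or 3 of 60. Male sedentary pain replicate 1 had Slc2a1 at 32.27 CPM, with the nearest library at 9.77 CPM. Female sedentary pain replicate 1 had Irs1 at 171.3 CPM (nearest 67.9 CPM) and Tbc1d1 at 94.82 CPM (nearest 57.6 CPM), and replicate 2 of that group had Hk2 at 354.7 CPM (nearest 300.3 CPM). Pdk4 was low in male control replicate 2, at 126.3 CPM (nearest 216 CPM), and high in male sedentary pain replicate 4, at 226.5 CPM (nearest 177 CPM). Txnip was low in female control replicate 1, at 383.2 CPM (nearest 553 CPM). Of these 7 libraries and genes, Hk2 was the only one in a called comparison, and without that library Hk2 was not called (log2 0.31, adjusted p = 0.0970).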

How the results depend on the processing

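The 6 calls among the 10 genes kept their direction in each of the 29 alternatives tried for them. In female sedentary pain against control (5 called), 3 genes were called with myofibre scaling, 3 with no low-count filter, 3 when only the 2 groups compared were fitted, 6 with DESeq2, 6 with replicates 1 and 2 against 3 and 4 as covariate, 7 with all 24 samples in 1 fit, 0 with replicates 1 and 2 only, 0 with 1 surrogate variable, and 2 to 7 with each library left out. With libraries left out after seeing the data, 1 was called without control replicates 3 and 4 (Insr) and 0 without sedentary pain replicates 3 and 4. All genes called numbered 4867, and 2847 with the 2 groups only, 238 with replicates 1 and 2 only, 114 with the surrogate variable, 2486 to 6674 with each library left out, and 2536 and 1440 with the added exclusions. In female active against sedentary pain (1 called), 2 genes were called with myofibre scaling, 2 with DESeq2, 2 with all 24 samples in 1 fit, 3 with replicates 1 and 2 against 3 and 4 as covariate, 4 with replicates 3 and 4 only, 3 with GC and length offsets and the replicate block together, and 0 to 4 with each library left out. There, 0 were called with no filter, with replicates 1 and 2 only, with the surrogate variable, with the 2 groups only, and in both added exclusions. All genes called there numbered 1730, and 4873 with myofibre scaling, 3154 with DESeq2, 2745 with the covariate, 2971 with both offsets and block, 174 with no filter, 0 to 4316 with each library left out, and 0 with replicates 1 and 2 only, the surrogate variable, the 2 groups only and both added exclusions. The sex differences of sedentary pain against control and of active against sedentary pain each had 2 genes called with replicates 3 and 4 only and 0 otherwise. Male against female controls had 1 called (Pdk4) with DESeq2, 1 with replicates 3 and 4 only, and 0 to 1 with each library left out. The 3 male comparisons and female active pain against control had 0 genes of the 10 called in every alternative. Of the named pathway genes, Socs1 (log2 -0.30) and Rab13 (log2 -0.19) reversed with the surrogate variable, uncalled. The causes were not tested. With the replicate number as a block, 4 genes were called in female sedentary pain against control (Hk2 and Irs2 lost, Gys1 gained) and 1 in active against sedentary pain. Of the named pathway genes the block lost Eif4ebp1, Tsc1 and Mlxip in the former and Foxo4 and Pdha1 in the latter (adjusted p at most 0.0646). Correlations of same-numbered libraries ran from -0.65 to 0.59 and were not over 0.1 for every pair of any comparison, so the numbers were not taken to pair the samples. They came closest in female active pain against control, at 0.064 to 0.415, where 3 of 4 libraries correlated best with their own number. Ratio tests were not run with libraries left out, since fewer samples raise the smallest possible p. With at least 122 counts per library for each of the 10 genes, counting depth limits Slc2a1 and Irs2 most.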
